A study of Mus musculus with 8 samples.

Results

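A set of 10 interferon-induced genes that receive less attention than the classical antiviral effectors were followed in HCA-1 liver tumors. These are 10 of the 55536 genes counted, chosen by symbol with earlier results of these data known and joined to the counts by Ensembl identifier: Ifi27, Ifi27l2a, Ifi35, Ifi44, Nmi, Xaf1, Phf11a, Phf11b, Phf11c and Phf11d. HCA-1 is a mouse hepatocellular carcinoma (HCC) line, and its cells were implanted under the liver capsule of male C3H mice of 6 to 8 weeks per the labels. RNA-seq was run on 4 tumors taken 3 h after intravenous PFSUV-IMQ at 4 mg/kg on day 17 (IMQNP in the labels, replicates 1 to 4) and on 4 tumors of mice given saline (Control, replicates 1, 3, 4 and 5). PFSUV-IMQ is the TLR7 agonist imiquimod (IMQ) carried in phospholipid-free small unilamellar vesicles. All 8 tumors came from the same implanted line, no group given empty vesicles or free IMQ was analysed here, and there was 1 dose and 1 time point. Whole tumors were sequenced, so fewer cells of a type and less RNA per cell cannot be told apart.

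Interferons are secreted proteins that signal through paired receptors and the kinases Jak1, Jak2 and Tyk2. Type I interferon leads to a transcription factor complex that includes Stat2 and Irf9 and binds the interferon-stimulated response element (ISRE) near the genes it switches on. TLR7 is an endosomal sensor of single-stranded RNA that is rich in plasmacytoid dendritic cells, a strong source of type I interferon. The 10 genes are targets of this response with unlike protein products. Xaf1 binds and antagonizes Xiap, an inhibitor of caspases. Ifi27 and Ifi27l2a belong to the small hydrophobic ISG12 proteins. Ifi35 and Nmi are relatives that bind each other. Ifi44 is a cytoplasmic protein with a close relative, Ifi44l. The Phf11 genes encode proteins with a PHD finger, a zinc-binding fold found in many chromatin proteins, and mice carry several neighboring copies.

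The control libraries held 16883911 to 27687756 counts and those after PFSUV-IMQ 17008151 to 18527613. Levels are given as CPM, a gene's counts relative to the TMM-scaled library size that edgeR computes. A floor of 3 counts is 0.108 to 0.178 CPM when taken over a tumor's total before that scaling, for counting error only. The 10 genes had 47 to 10461 counts in a tumor, and all 10 passed the filter on low counts. The mitochondrial share of counts was 1.37 to 4.72% without and 1.59 to 6.65% with the treatment. The highest share and the smallest treated library were both those of PFSUV-IMQ tumor 2. Of the HCC and hepatocyte markers, Alb was abundant in all tumors, while the oncofetal markers Afp (2.10 to 6.08 CPM) and Gpc3 (0.629 to 1.99 CPM) were low in all tumors.

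Of the 10 genes, 8 were higher after PFSUV-IMQ, with fitted folds from 2.60 for Nmi to 10.8 for Phf11a. Calls needed a log2 fold change beyond 1 in size and an adjusted p under 0.05 in the quasi-likelihood test of edgeR, where Benjamini-Hochberg adjustment ran over the 15998 tested genes. By that rule 8 of 10 were called higher and 0 lower, whereas 2.26% of all tested genes were called higher and 0.200% lower. All 10 fold changes were positive, with a median log2 fold change of 2.77 against -0.03 over all tested genes. In 9 of 10 genes every PFSUV-IMQ tumor was above every control tumor, as in 6.00% of all tested genes. Ifi27 and Ifi27l2a were not called.

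**Figure D1:**
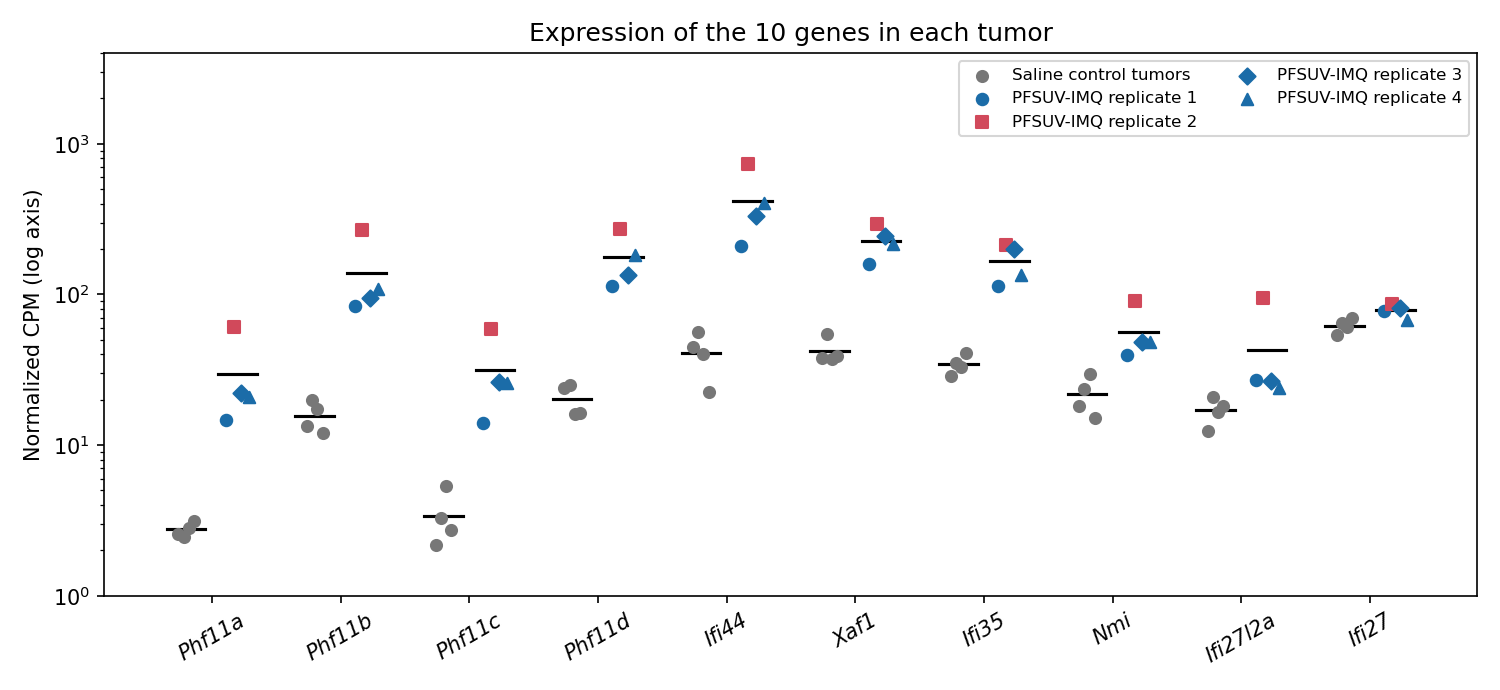
Normalized CPM (log axis) of each gene in the 4 saline control tumors (gray) and the 4 PFSUV-IMQ tumors (colored by replicate), with a bar at the mean of each group. The groups overlap for Ifi27 only, and PFSUV-IMQ replicate 2 (red squares) is the highest tumor for all 10 genes.

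The 4 Phf11 genes rose together, by 8.63 to 10.8 fold. They lie side by side on the minus strand of chromosome 14 (GRCm38, GENCODE M21), in a span of 118469 bases at chr14:59276913-59395381, in the order Phf11a, Phf11b, Phf11d and Phf11c. RefSeq start regions of the locus (GRCm38.p6, minus strand, 5′ to 3′) are shown because these near copies can be compared there base by base. Capitals mark the extended ISRE (GAAA, any 2 bases, GAAAC) in Phf11a and Phf11b, and the shorter letters AANNGAAAC in Phf11d.
Phf11a, chr14:59297523-59297582: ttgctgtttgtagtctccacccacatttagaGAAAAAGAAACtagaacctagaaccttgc
Phf11b, chr14:59341352-59341411: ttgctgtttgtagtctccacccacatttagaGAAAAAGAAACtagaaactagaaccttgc
Phf11d, chr14:59365483-59365542: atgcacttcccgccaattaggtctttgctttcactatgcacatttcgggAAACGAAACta
Counted from the first transcribed base in RefSeq as 0, the capitals lie at -29 to -19 in Phf11a, at -50 to -40 in Phf11b and at -3 to 5 in Phf11d. The 300-base windows of Phf11a and Phf11b were 98.2% identical over 279 aligned bases, and that of Phf11d was 77.5% identical to Phf11a over 244 bases. The window of Phf11c aligned with that of Phf11d over 145 bases at 70.3% identity and held none of the motifs searched. Its RefSeq start lies 1869 bases from the start in GENCODE.

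Phf11a had 2.58, 2.46, 2.84 and 3.15 CPM in control tumors 1, 3, 4 and 5, and 14.7, 61.2, 22.1 and 20.8 CPM in PFSUV-IMQ tumors 1 to 4. The lowest treated tumor was well above the highest control, and tumor 2 stood apart from the other treated tumors. The mean went from 2.76 ± 0.305 to 29.7 ± 21.2 CPM (SD, n = 4 tumors in a group, as in all means given here), and the log2 fold change was 3.43 (SE 0.45, 95% confidence interval 2.43 to 4.43, adjusted p = 0.00377).

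Phf11b had the most counts per base of transcript of the 4 genes, though its split from Phf11a is uncertain, as described below. It had 13.3, 20.1, 17.3 and 12.1 CPM in the control tumors and 83.7, 266, 95.4 and 108 CPM in the PFSUV-IMQ tumors. The groups did not overlap, and tumor 2 was again the highest, with the other treated tumors close to each other. This was a log2 fold change of 3.14 (SE 0.40, interval 2.25 to 4.03, adjusted p = 0.00327), from 15.7 ± 3.65 to 138 ± 85.9 CPM.

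Phf11d had 24.1, 25.1, 16.1 and 16.2 CPM in the control tumors and 114, 273, 134 and 183 CPM in the PFSUV-IMQ tumors. All treated tumors were far above the controls, which formed a high and a low pair. Its log2 fold change was 3.11 (SE 0.31, interval 2.41 to 3.81, adjusted p = 0.00108), from 20.4 ± 4.90 to 176 ± 70.7 CPM. Phf11c had 2.17, 3.30, 5.37 and 2.71 CPM in the control tumors and 14.1, 59.2, 26.2 and 25.8 CPM in the PFSUV-IMQ tumors. Here too the groups were apart, with control tumor 4 above the other controls. For Phf11c the log2 fold change was 3.20 (SE 0.47, interval 2.15 to 4.25, adjusted p = 0.00669), from 3.39 ± 1.40 to 31.3 ± 19.4 CPM.

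The ratios between the 4 genes moved little on average. The within-tumor log2 difference between each pair of Phf11 genes moved by -0.06 to 0.17 from control to PFSUV-IMQ tumors, and none of the 6 pairs passed an exact two-sided permutation test over tumors (p = 0.543 to 1, adjusted p = 0.947 to 1 over 8 pairs, where 0.0286 was the smallest p that 4 against 4 tumors allow). A p above the threshold does not show that the 4 changes were equal. The directions of these differences are not stable, since each of the 6 changed sign when single tumors were left out. The genes also share sequence. Of the 50-base stretches of the annotated transcripts, 35.2% of those of Phf11a and 47.0% of those of Phf11b occur in another gene, against 10.9% for Phf11c and 8.09% for Phf11d. How reads from such stretches were assigned is not given in the sources used here, so the split of counts between Phf11a and Phf11b is uncertain.

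Flanking genes of the cluster were read as well. Setdb2, a histone methyltransferase gene 6628 bases beyond Phf11c, had 10.3, 8.82, 12.3 and 5.32 CPM in the control tumors and 23.8, 74.5, 21.5 and 30.9 CPM in the PFSUV-IMQ tumors. It was called higher, with a log2 fold change of 2.03 (SE 0.43, adjusted p = 0.0398). On the other side, Gm6904, which shares 50-base stretches with the Phf11 genes, had 0.682 ± 0.475 and 3.20 ± 2.68 CPM with overlapping groups. Its log2 fold change of 2.20 (SE 0.67) was as large as that of Setdb2, but it was not called (adjusted p = 0.157). Rcbtb1, the next gene of the list on that side, had 42.3 ± 7.82 and 40.4 ± 4.98 CPM (log2 fold change -0.06, adjusted p = 0.936).

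**Figure D2:**
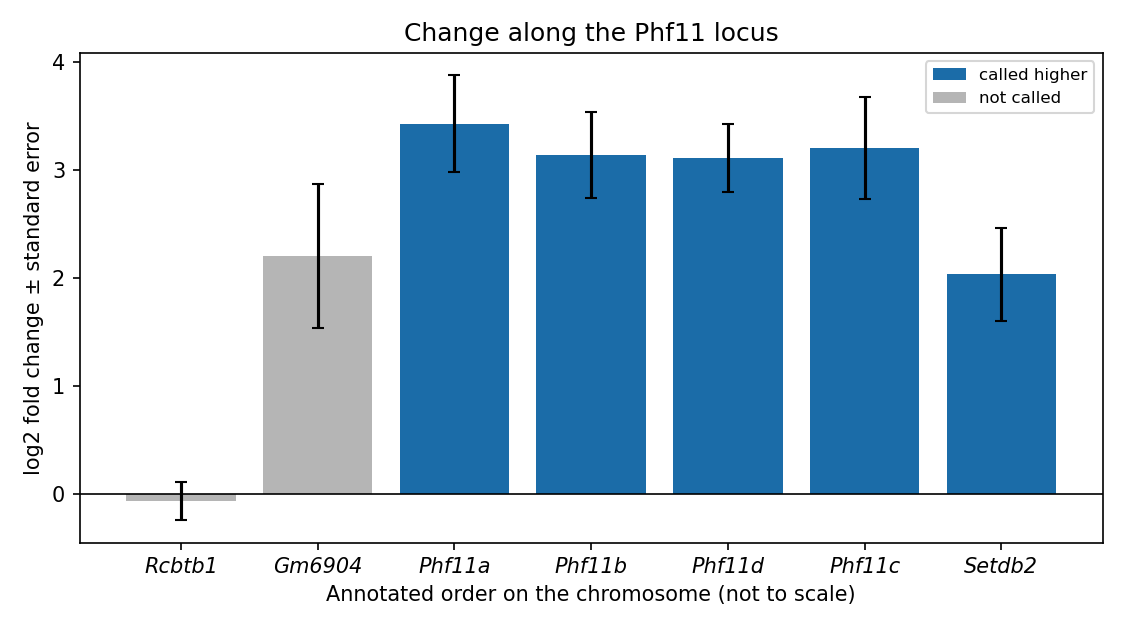
Log2 fold change, PFSUV-IMQ over saline control, of the tested genes along the Phf11 locus in their annotated order, with bars of ± 1 standard error. Called genes (blue) run from Phf11a to Setdb2 with changes of 2.03 to 3.43. Of the genes not called (gray), Gm6904 is at 2.20 and Rcbtb1 at -0.06.

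Ifi44 showed the largest change outside the Phf11 genes, 10.2 fold (interval 5.27 to 19.9). The human protein has been linked to growth arrest and binds the FK506-binding protein Fkbp5. The gene lies at chr3:151730922-151749960 on the minus strand (GRCm38). Its RefSeq start region (GRCm38.p6, minus strand) is printed because it holds the shorter letters AANNGAAAC on the opposite strand, in capitals, at -56 to -48.
Ifi44, chr3:151749946-151749975: gtatacagaGTTTCAGTTttcgtttcccga
A second match lies at -10 to -2. The RefSeq start of Ifi44 lies 50 bases from the GENCODE start, which falls within the printed match. Ifi44 had 44.6, 56.4, 40.0 and 22.6 CPM in the control tumors and 209, 731, 333 and 403 CPM in the PFSUV-IMQ tumors. The lowest treated tumor was still above the highest control, and both groups were spread, the treated tumors by 3.49 fold and the controls by 2.49 fold. The log2 fold change was 3.35 (SE 0.43, interval 2.40 to 4.31, adjusted p = 0.00327), from 40.9 ± 14.0 to 419 ± 223 CPM.

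Ifi44l, the relative of Ifi44, is separated from it by 8777 bases. Ifi44l had 9.82, 11.9, 13.1 and 9.12 CPM in the control tumors and 49.7, 189, 68.1 and 70.1 CPM in the PFSUV-IMQ tumors. It was called higher (log2 fold change 3.10, SE 0.42, adjusted p = 0.00428). Its transcripts share no 50-base stretch with those of Ifi44. Adgrl4, the nearest tested gene on the other side of Ifi44, was not called (log2 fold change -0.72, adjusted p = 0.275).

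Xaf1, the antagonist of Xiap, had the smallest adjusted p of the 10 genes. It lies at chr11:72301629-72313733 on the plus strand. Xaf1 had 38.1, 54.4, 37.5 and 38.8 CPM in the control tumors and 160, 291, 243 and 215 CPM in the PFSUV-IMQ tumors. The controls other than tumor 3 were nearly equal, and tumor 3 was above them, and every treated tumor was far above all controls. For Xaf1 this was a log2 fold change of 2.43 (SE 0.23, interval 1.92 to 2.94, adjusted p = 0.000800), a 5.38-fold rise from 42.2 ± 8.16 to 227 ± 54.8 CPM. Xiap itself had 78.4 ± 31.6 and 84.1 ± 43.3 CPM and was not called (log2 fold change 0.10, SE 0.43, adjusted p = 0.961). Fbxo39, 711 bases beyond Xaf1, was low, at 0.285 ± 0.178 and 1.07 ± 0.309 CPM without overlap. It was not called (log2 fold change 1.92, SE 0.45, adjusted p = 0.0631). Slc13a5, on the other side, had overlapping groups and was not called (log2 fold change 1.09, SE 0.69, adjusted p = 0.593).

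Ifi35 and Nmi, whose proteins bind each other, were both called higher, with folds of 4.82 and 2.60. Ifi35 lies at chr11:101448407-101458698 on the plus strand, and Nmi at chr2:51948487-51973494 on the minus strand. Ifi35 had 28.9, 35.2, 32.8 and 40.6 CPM in the control tumors and 114, 214, 199 and 135 CPM in the PFSUV-IMQ tumors. The groups were far apart, and tumors 2 and 3 were close to each other at the top. Ifi35 had a log2 fold change of 2.27 (SE 0.24, interval 1.74 to 2.80, adjusted p = 0.00121), a 4.82-fold rise from 34.4 ± 4.87 to 166 ± 48.6 CPM.

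The antisense gene Gm11626 overlaps 16.8% of the exon bases of Ifi35. It had at most 3 counts in a control tumor and 12 to 29 counts after PFSUV-IMQ, where Ifi35 had 2064 to 3571. From these low counts Gm11626 was called higher (log2 fold change 4.50, SE 0.73, adjusted p = 0.0112 in the quasi-likelihood test). Whether reads were counted by strand is not given in the sources used here. The flanking genes Rpl27 (log2 fold change 0.06) and Vat1 (log2 fold change -0.09), 47 bases from the end of Ifi35, were not called.

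Nmi, the N-myc and Stat interactor, had 18.2, 23.8, 29.9 and 15.2 CPM in the control tumors and 39.4, 90.2, 48.4 and 48.4 CPM in the PFSUV-IMQ tumors. The groups did not overlap, but the lowest treated tumor was not far above the highest control. Nmi had a log2 fold change of 1.38 (SE 0.30, interval 0.70 to 2.06, adjusted p = 0.0473), a 2.60-fold rise from 21.7 ± 6.47 to 56.6 ± 22.8 CPM. This call was close to the threshold and was lost in 7 of 8 fits with 1 tumor left out, all but the fit without PFSUV-IMQ tumor 1. Without PFSUV-IMQ tumor 2 its log2 fold change was 1.04 (adjusted p = 0.0673). Rbm43, an RNA-binding protein gene 13324 bases from Nmi, had 26.2 ± 2.52 and 64.4 ± 13.4 CPM and was called higher (log2 fold change 1.30, SE 0.18, adjusted p = 0.00467). On the other side of Nmi, Tnfaip6 had 1.87 ± 0.397 and 4.72 ± 2.41 CPM without overlap and was not called (log2 fold change 1.33, SE 0.37, adjusted p = 0.115).

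The within-tumor log2 difference of Ifi35 over Nmi was 0.70 ± 0.53 in the control tumors and 1.57 ± 0.33 in the PFSUV-IMQ tumors. The change of 0.88 did not pass (exact permutation test, two-sided, p = 0.0571, adjusted p = 0.229 over 8 pairs), and the values of the groups overlapped.

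The ISG12 genes were the ones not called. Ifi27 (chr12:103434211-103440239, plus strand) and Ifi27l2a (chr12:103442167-103443680, minus strand) lie 1928 bases apart, and their proteins have been placed at membranes of mitochondria and the nucleus. Ifi27 had 53.6, 64.4, 61.0 and 69.4 CPM in the control tumors and 78.0, 86.5, 81.9 and 67.5 CPM in the PFSUV-IMQ tumors. The groups overlapped, since PFSUV-IMQ tumor 4 was below control tumor 5. The log2 fold change was 0.34 (SE 0.15, interval 0.01 to 0.67, adjusted p = 0.369), from 62.1 ± 6.64 to 78.5 ± 8.07 CPM.

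Ifi27l2a had 12.4, 20.8, 16.7 and 18.1 CPM in the control tumors and 26.9, 94.7, 26.8 and 23.8 CPM in the PFSUV-IMQ tumors. Every treated tumor was above every control, but 3 of them only slightly, and tumor 2 was 3.52 times the next treated tumor. The log2 fold change was 1.34 (SE 0.45, interval 0.33 to 2.34, adjusted p = 0.212), and without PFSUV-IMQ tumor 2 it was 0.58 (adjusted p = 0.224). The means were 17.0 ± 3.50 and 43.1 ± 34.5 CPM.

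The within-tumor log2 difference of Ifi27 over Ifi27l2a was 1.88 ± 0.20 in the control tumors and 1.13 ± 0.84 in the PFSUV-IMQ tumors, without overlap. The change of -0.75 reached the smallest p that the design allows and did not pass after adjustment (exact permutation test, two-sided, p = 0.0286, adjusted p = 0.229 over 8 pairs). A pair that is alone at that p cannot pass after adjustment over 8 pairs, so the adjusted test could not decide here. The change was -0.33 without PFSUV-IMQ tumor 2. Ifi27l2b, the next copy along the chromosome, was low and not called, at 3.85 ± 1.92 and 4.69 ± 1.16 CPM (log2 fold change 0.28, SE 0.37, adjusted p = 0.832). Ddx24, on the far side of Ifi27, was not called (log2 fold change 0.72, adjusted p = 0.155).

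**Figure D3:**
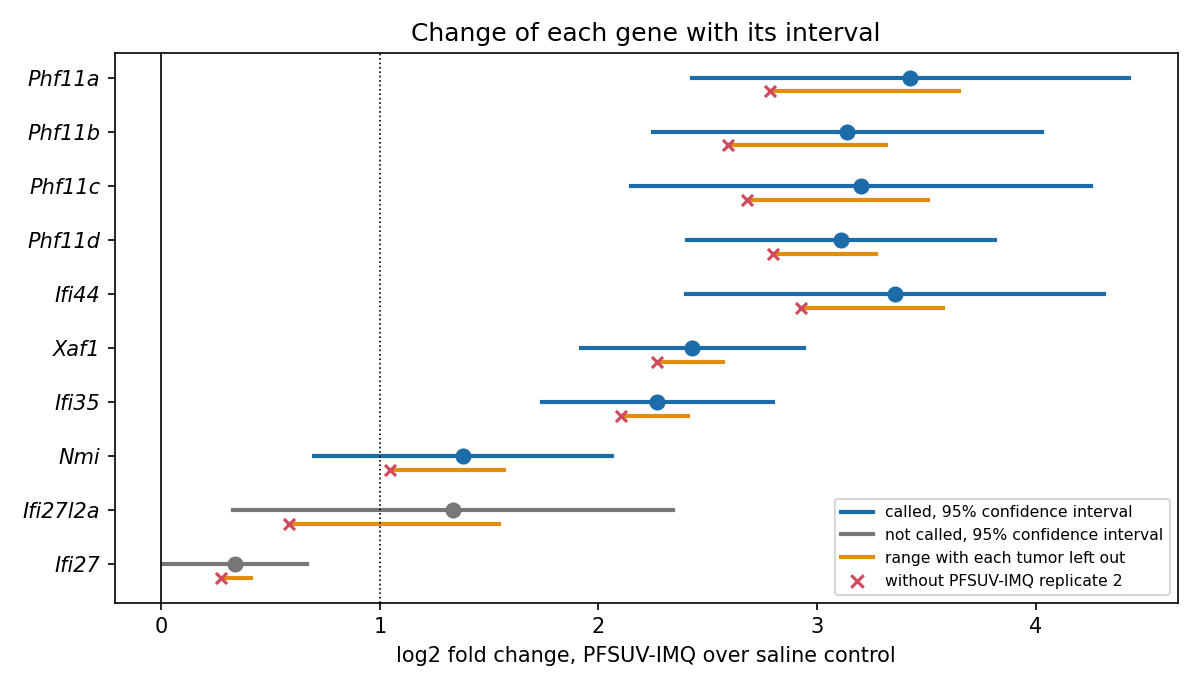
Log2 fold change of each gene, PFSUV-IMQ over saline control, with its 95% confidence interval (blue, called, and gray, not called) and the range over the 8 fits that leave out 1 tumor (orange), in which the cross is the fit without PFSUV-IMQ replicate 2. The dotted line is the limit of 1 for a call, and the intervals of Nmi, Ifi27l2a and Ifi27 reach below it.

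Levels can be compared between genes only per length, as CPM per kilobase of annotated exon. In the control tumors Ifi27 was the highest (42.3 ± 4.52 CPM per kb) and Ifi27l2a was next (36.8 ± 7.57). Ifi35 followed at 19.9 ± 2.82, then Phf11b (13.3 ± 3.09), Nmi (10.9 ± 3.23), Xaf1 (9.0 ± 1.74) and Ifi44 (6.68 ± 2.29). The lowest were Phf11d (4.53 ± 1.09), Phf11a (2.04 ± 0.225) and Phf11c (0.980 ± 0.405). The tumors of neighbors in this order overlapped, except for Ifi27l2a with Ifi35, Phf11d with Phf11a, and Phf11a with Phf11c. Overlap across tumors does not give the order within a tumor. In each control tumor Ifi35 was above Phf11b, Xaf1 above Ifi44 and Ifi44 above Phf11d. The other overlapping neighbors changed order between tumors.

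In the PFSUV-IMQ tumors the order of mean levels was another one. Phf11b moved from the fourth place to the first, at 117 ± 72.5 CPM per kb, ahead of Ifi35 (96.0 ± 28.1), Ifi27l2a (93.0 ± 74.5) and Ifi44 (68.4 ± 36.3). Neighbors in this order overlapped throughout, and the means of Phf11b and Ifi27l2a rested on tumor 2, at 225 and 205 CPM per kb. Within each PFSUV-IMQ tumor, however, Xaf1 was above Phf11d, Phf11d above Nmi and Phf11a above Phf11c. The other neighbors changed order between tumors. Without tumor 2 Ifi35 was first (86.6 ± 25.7) and Phf11b next (80.9 ± 10.3, n = 3), and Ifi27 was just ahead of Ifi44. Ifi27 took the fifth place at 53.5 ± 5.50, close to Xaf1 (48.5 ± 11.7) and above Phf11d (39.1 ± 15.7) and Nmi (28.3 ± 11.4). Phf11a (21.9 ± 15.7) and Phf11c (9.05 ± 5.61) remained the lowest.

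PFSUV-IMQ tumor 2 was the highest treated tumor for all 10 genes, and tumor 1 was the lowest for 8. Tumor 4 was the lowest for Ifi27 and Ifi27l2a. Of all the genes called higher, 88.4% also had their highest treated value in tumor 2. Relative to the mean of the controls, tumor 2 was at 22.2 fold for Phf11a, where tumors 1, 3 and 4 were at 5.33, 8.03 and 7.54 fold. For Ifi44 tumor 2 was at 17.9 fold, and tumors 1, 3 and 4 were at 5.11, 8.14 and 9.84 fold. The gap was narrow for Xaf1, with 6.90 fold in tumor 2 and 3.79, 5.75 and 5.10 fold in the others, and for Ifi35, with 6.23 fold in tumor 2 and 3.31, 5.79 and 3.94 fold in the others. Without tumor 2, the 7 called genes other than Nmi were still called, with log2 fold changes from 2.10 for Ifi35 to 2.92 for Ifi44.

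**Figure D4:**
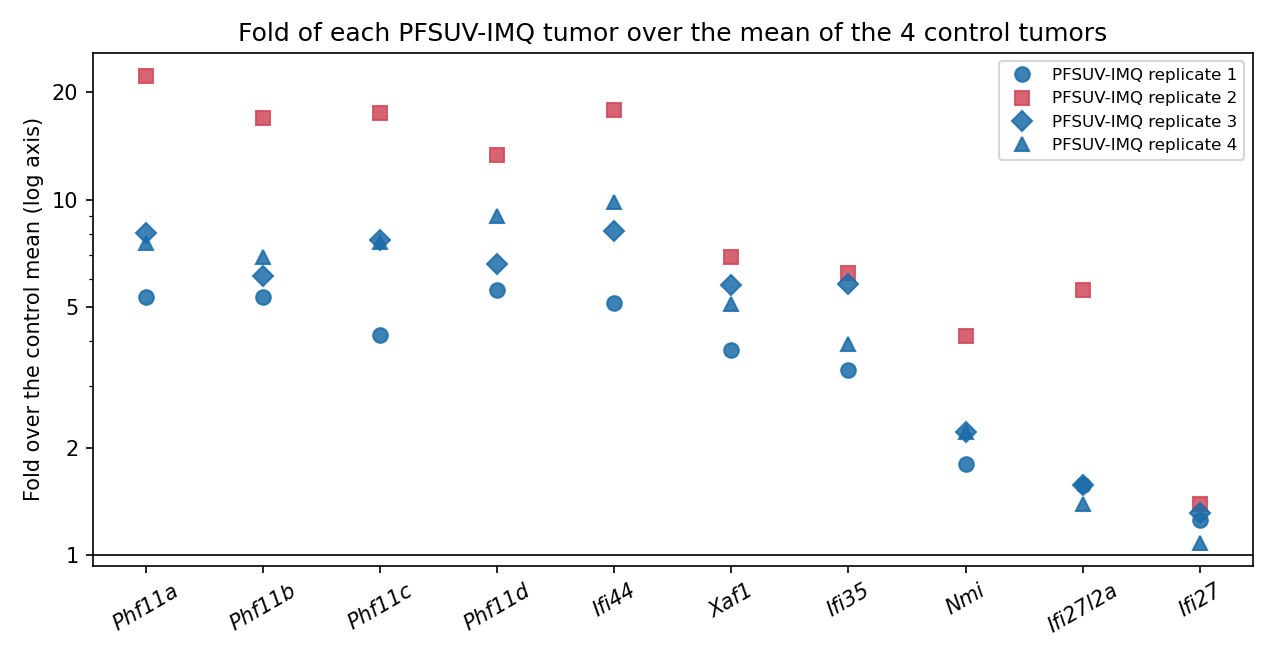
Fold of each PFSUV-IMQ tumor over the mean of the 4 control tumors (log axis, line at 1) for the 10 genes. Replicate 2 (red squares) lies at 22.2 fold for Phf11a and 17.9 fold for Ifi44, and close to the other tumors for Xaf1, Ifi35 and Ifi27.

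The summed markers of several cell types also varied between the tumors. The summed HCC and hepatocyte markers were 34077 CPM in PFSUV-IMQ tumor 2 and 33681 CPM in control tumor 4, against 5622 to 14340 CPM in the other controls and 7281 to 10012 CPM in the other treated tumors. Most of each sum was Alb. Of all tumors, PFSUV-IMQ tumor 2 was the highest for Alb, Apoa1, Ttr, Serpina1a, Cps1 and Hnf4a, and control tumor 4 for Cyp2e1. However, PFSUV-IMQ tumor 2 was the lowest of all tumors for Afp (2.10 CPM), Gpc3 (0.629 CPM) and Krt18 (550 CPM). Control tumor 4 was the highest control for Nmi and Phf11c and the lowest for Xaf1 and Phf11d. The summed markers of plasmacytoid dendritic cells ranged from 124 to 197 CPM without treatment and from 169 to 266 CPM with it, and most of that sum was Tcf4, which other cells also express. Siglech, a more specific marker of these cells, had 3.67 ± 1.04 CPM in the controls and 1.71 ± 0.977 CPM after PFSUV-IMQ, with overlapping groups (log2 fold change -1.11, adjusted p = 0.271). Of the 4 tested markers of this list, only Siglech had a negative change. Ccr9 (log2 fold change 0.56), Tcf4 (0.57) and Ly6d (1.25) had positive changes and were not called, and the Ly6d groups did not overlap. Cox6a2 and Klk1 did not pass the filter on low counts. Tumor 2 had the highest sums of plasmacytoid dendritic cell, T cell (155 CPM), NK cell (27.9 CPM), B cell (20.8 CPM) and neutrophil markers (143 CPM), and macrophage markers spanned 911 to 1310 CPM in the controls and 638 to 1258 CPM in the treated tumors. Fibroblast markers were highest in PFSUV-IMQ tumor 1 (7928 CPM, against 2350 to 4119 CPM in the other tumors). In none of the 10 marker lists was a gene called in either direction, and no marker was at 0 in all tumors. The part of these cells in the levels of the 10 genes was not tested.

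The wider interferon pathway was read from a list of 34 genes, of which 26 were tested. Of these, 9 were called higher and 0 lower, against 2.26% and 0.200% of all tested genes. The median log2 fold change was 0.75, and 21 of the 26 changes were positive. Every treated tumor was above every control for 12 of the 26, as for 6.00% of all tested genes. These were the 9 called genes and Jak2, Irf1 and Birc2. At the ligand level, Ifnb1 had at most 4 counts in a control tumor and 3 to 7 counts in the PFSUV-IMQ tumors, and Ifna1 had 0 counts in all 8 tumors. Ifnl2 reached 6 counts and Ifnl3 3 counts in a treated tumor, and both had 0 counts in the controls. Levels this low cannot be compared at this depth. Ifng, the only ligand tested, was not called (log2 fold change 0.62, adjusted p = 0.629).

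None of the 7 receptors and kinases was called. Ifnar1 and Ifnar2, the chains of the type I interferon receptor, had log2 fold changes of -0.14 and 0.05, and Jak2 had 0.93 (adjusted p = 0.262). Among 5 transcription factors 3 were called. Stat2 rose from 102 ± 11.9 to 517 ± 81.3 CPM (log2 fold change 2.34, adjusted p = 4.99e-04), and Irf7, which amplifies the type I response, from 67.8 ± 13.3 to 520.4 ± 219 CPM (2.94, adjusted p = 0.00121). Irf9 (1.26, adjusted p = 0.00870) was also called, while Irf1 (0.87, adjusted p = 0.0939) and Irf3 (-0.03) were not called.

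Of the 3 feedback inhibitors, Usp18, which blocks the type I receptor, showed the largest change of the list, from 17.6 ± 3.59 to 496 ± 276 CPM (log2 fold change 4.82, SE 0.41, adjusted p = 5.94e-04). Socs1 was also called (2.74, adjusted p = 0.0137), and Socs3 was not (0.42). Among the partners of the 10 genes, Ddx58 (RIG-I), a viral RNA sensor that Ifi35 and Nmi have been reported to regulate, rose from 48.5 ± 7.33 to 293 ± 96.1 CPM (2.59, adjusted p = 9.62e-04). Fkbp5, the partner of Ifi44, rose from 114 ± 23.1 to 236 ± 34.8 CPM (1.06, adjusted p = 0.0208), and its groups did not overlap. Birc2 (1.18, adjusted p = 0.192) and Birc3 (1.00, adjusted p = 0.422), listed with Xiap as partners of Xaf1, were not called. Nr4a1 (0.61, adjusted p = 0.329), a nuclear receptor bound by ISG12 proteins, was not called either.

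**Figure D5:**
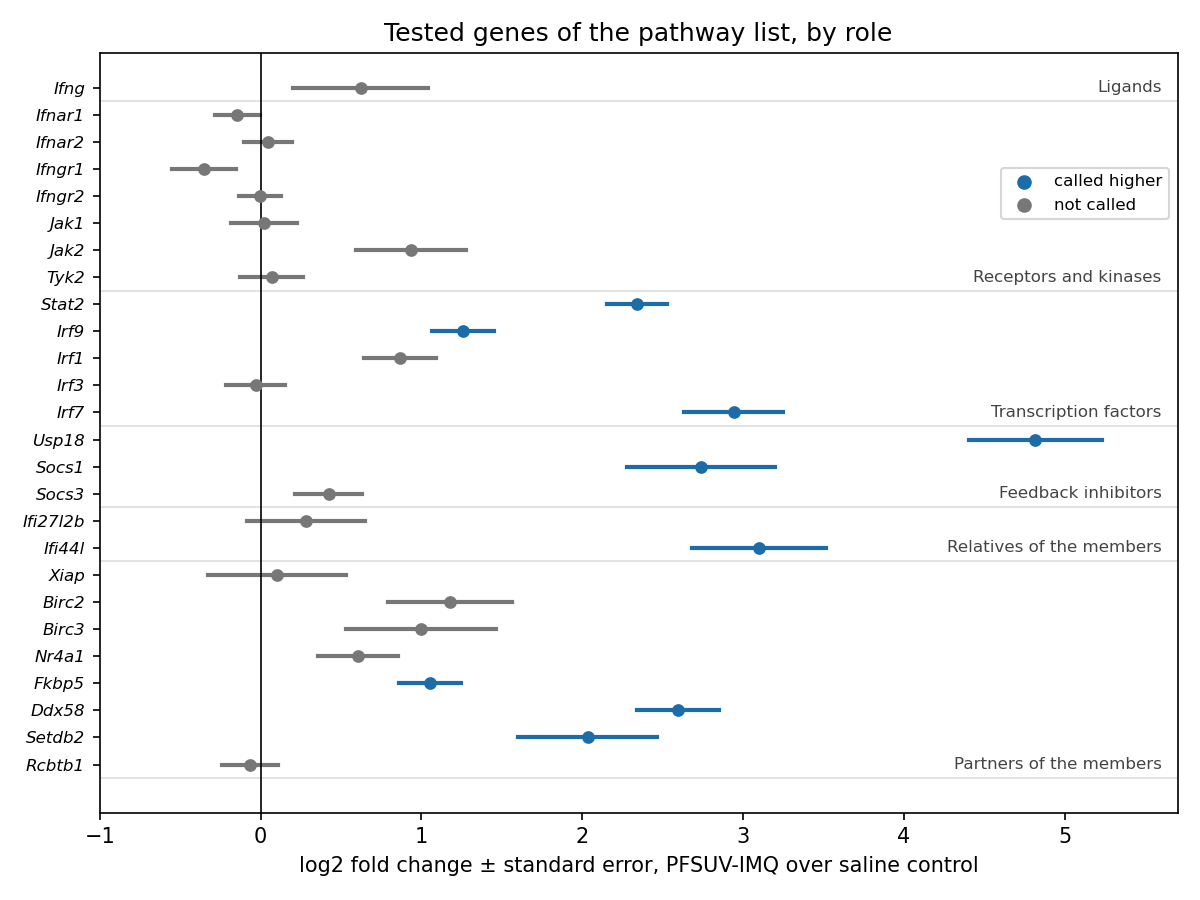
Log2 fold change, PFSUV-IMQ over saline control, of the 26 tested genes of the pathway list, grouped by role, with bars of ± 1 standard error. Called genes (blue) are found among transcription factors, feedback inhibitors, relatives and partners, and none among the 7 receptors and kinases.

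Start regions of RefSeq (GRCm38.p6, 250 bases before to 50 after the start) were found for 8 of the 10 genes, all but Ifi27 and Ifi27l2a. The RefSeq starts of Nmi and Phf11c lie 286 and 1869 bases inside the GENCODE genes. Their windows do not reach the GENCODE starts, so the lack of a match there does not describe those starts. On either strand the ISRE core (GAAA, any 2 bases, GAAA) was in 2 of 8 windows, those of Phf11a and Phf11b, and in 3.44% of all 32851 windows. The extended ISRE, which is the core followed by C, was in the same 2 windows and in 0.819% of all windows. The shorter letters AANNGAAAC, chosen after the windows had been read and contained in the extended ISRE, were in 5 of 8 windows (Ifi44, Xaf1, Phf11a, Phf11b and Phf11d) and in 5.77% of all windows. The palindromic GAS letters TTCNNNGAA were in the Ifi35 window, at 7 to 15 after the start, and in 8.30% of all windows, and the NF-kB motif was in 0 of 8 windows and in 0.411% of all. As Phf11a and Phf11b have nearly identical windows, their matches are not independent, and a match is a description of letters only.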

How the data were processed

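RNA-seq of 8 HCA-1 tumors was analysed, 4 after PFSUV-IMQ and 4 after saline. The authors deposited whole-number read counts per gene, which were used for all tests, and a normalized signal table that the authors made by dividing counts by 1 size factor per tumor (largest relative departure 5.4e-10), used for 1 alternative. Of the upstream steps, the submitters' processing notes name Trimmomatic 0.38, HISAT2 2.1.0 and featureCounts 2.0.0, whereas the methods of the study name TopHat and HTSeq. The aligner and counter behind the files are therefore not settled, and the strand setting and the use of reads with several matches are not given in the sources used here. All 55536 identifiers were found in GENCODE M21 (GRCm38).

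The 10 genes, the pathway list, the marker lists and the tests were chosen with earlier results of these data known, so no pattern here is independent support for them. Counts were tested in R 4.3.3 with edgeR 4.0.16 (TMM, default filter, quasi-likelihood test, legacy dispersion trend), with Benjamini-Hochberg adjustment over 15998 genes, and calls required a log2 fold change beyond 1 as well as an adjusted p under 0.05. Standard errors were derived from the fold change and its F statistic. Within-tumor log2 differences of 8 gene pairs (prior count of 2) were compared by exact two-sided permutation over tumors. Named genes were the 10 genes, called genes and up to 3 others per role of the pathway list, and the nearest tested neighbors, with Gm11626 and the letters AANNGAAAC added after their values were seen. In the pathway list, 1 gene is not reported here and was left out of its counts. The table of counted genes holds no separate Ifi27l1, which RefSeq gives as a synonym of Ifi27.

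Tumors of a group differed by more than sampling noise (chi-square per degree of freedom 32.0 to 313, Pearson's r 0.899 to 0.987 across genes). The labels do not say that tumors came from separate mice, and p values measure the spread between them. Both groups use the replicate numbers 1, 3 and 4, but nothing in the labels ties them together. Alternatives used other normalizations (DESeq2 1.42.0 size factors, upper quartile, and, added after seeing the data, the authors' size factors), other filters, DESeq2's Wald test, edgeR's exact test and glmTreat, no limit on the fold change, the replicate number as a block, a prior count of 0.5 and each tumor left out.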

Additional observations from a re-analysis of the deposited data

Results flagged for a closer look

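Of the 20 groups of 4 tumors (10 genes in 2 groups), 4 had a tumor whose gap to the nearest other tumor, divided by the range of the group, was above Dixon's 95% critical value. That value is set for 1 in 20 groups of independent, normally distributed values. The 20 groups here are the same tumors read for 10 genes, so that rate cannot be set beside the count of 4. PFSUV-IMQ tumor 2 was apart from the other treated tumors for Ifi27l2a (94.7 CPM), Phf11a (61.2 CPM) and Phf11b (266 CPM). As tumor 2 was the highest treated tumor for all 10 genes, these are not separate instances. Phf11a and Phf11b also share transcript sequence. Control tumor 3 was apart from the other controls for Xaf1 (54.4 CPM), and without it the log2 fold change of Xaf1 was 2.57.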

How the results depend on the processing

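The 7 genes Ifi35, Ifi44, Xaf1, Phf11a, Phf11b, Phf11c and Phf11d were called in all 18 alternatives, and Ifi27 and Ifi27l2a in none. Nmi was called in 9 of 18, and its 9 lost calls were the only ones among 180 values. Its log2 fold change was 0.95 with the replicate block and 1.04 to 1.57 in the other 8, among them 1.38 under glmTreat, which tests against a log2 fold change of 1. With each tumor left out, 7 to 8 of the 10 genes were called higher. The Phf11 pair differences reversed in 14 of 60 alternative values, all with a tumor left out, with ranges of -0.0090 to 0.35 (Phf11a over Phf11b), -0.12 to 0.26 (Phf11a over Phf11c), -0.076 to 0.27 (Phf11a over Phf11d), -0.25 to 0.048 (Phf11b over Phf11c), -0.22 to 0.10 (Phf11b over Phf11d) and -0.27 to 0.35 (Phf11c over Phf11d). Of all tested genes, 362 were higher and 32 lower, with 572 and 114 in DESeq2's Wald test, 119 and 1 under glmTreat, 197 to 375 and 8 to 38 with each tumor left out, 92 lower in edgeR's exact test and 63 lower without a filter. Under glmTreat 5 of the pathway list were called higher, and 7 to 9 with each tumor left out. The causes were not tested. Same-numbered tumors did not deviate together (correlations from -0.39 to 0.32 over 3 pairs), and differently numbered tumors had correlations from -0.68 to 0.74. With so few pairs and such a spread, these values cannot show whether the numbers pair the tumors. With the replicate block 416 genes were higher and 267 lower, 7 of the 10 genes were called, and Nmi had a log2 fold change of 0.95 (adjusted p = 0.0302). In that fit PFSUV-IMQ tumor 2 and control tumor 5 have no tumor of the same number in the other group. Its fold changes therefore rest on the 3 same-numbered pairs only, and it is not a fit on all tumors. The median log2 fold change of all genes ran from -0.10 with upper-quartile normalization to 0.06 without a filter, and the median of the 10 genes from 2.38 to 2.91. Ligand genes at 0 to 7 counts per tumor lie at or near the floor of 3 counts.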
